A study of Homo sapiens with 34 samples.

Results

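The 10 genes described here encode subunits of the BAF (also called SWI/SNF) chromatin remodelling complexes. They comprised the ATPases SMARCA2 (BRM) and SMARCA4 (BRG1), the paralogues SMARCD1, SMARCD2 and SMARCD3, the DNA-binding subunits ARID1A and ARID1B, the actin-like proteins ACTL6A and ACTL6B, and the PHD finger protein DPF3. The genes were chosen by name, and each was read from the RefSeq transcript with the largest total count. All 10 were found among the 23185 gene symbols of the count table, although ACTL6B was close to absent.

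RNA was sequenced from H1 cells, an established line of human embryonic stem cells (ESCs), at days 0, 2, 6 and 10 of directed differentiation toward cardiomyocytes (CMs). All cells had received a lentiviral vector and puromycin selection, and all were differentiated with the GSK3β inhibitor CHIR99021 followed by the WNT inhibitor IWP2, with insulin added later. In the 3 knockdown lines the vector expressed an shRNA targeting NKX2-5, ZEB2 or ZNF503. WT denotes cells given the empty vector or an shRNA targeting GFP. Each line rested on a single shRNA vector, the most effective of those tried, so an effect of the target cannot be told apart from an effect of that vector. The 30 libraries used formed 15 groups of 2: WT, NKX2-5 shRNA and ZEB2 shRNA cells at all 4 days, and ZNF503 shRNA cells at days 0, 2 and 6. Day 10 of the ZNF503 shRNA line was not analysed here.

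BAF complexes use the energy of ATP to slide or evict nucleosomes, and so open or close promoters and enhancers to transcription factors. Several positions in the complex can be filled by alternative paralogues, and the mixture of paralogues changes as cells take on a fate. In ESCs the complex is built around SMARCA4, ARID1A and ACTL6A, whereas SMARCD3 and DPF3 are known for their part in the developing heart and ACTL6B for replacing ACTL6A in neurons.

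Total counts per library ranged from 9189588 to 90798116 (median 32188818), and day 10 was the shallowest day, with 9189588 to 29548573. The targeted gene was at 1.3% ± 0.243 of the WT level in NKX2-5 shRNA cells at day 6 and at 1.38% ± 1.26 at day 10, at 90.1% ± 35.0 and 6.98% ± 0.297 in ZNF503 shRNA cells at days 2 and 6, and at 66.4% ± 5.43, 58.5% ± 1.83 and 49.5% ± 0.00656 in ZEB2 shRNA cells at days 2, 6 and 10 (SD, n = 2 each). ZNF503 had at most 34 counts in a WT library at day 2, and no knockdown was seen there. At day 0 all 3 targets had at most 16 counts in the WT libraries, and NKX2-5 at most 6 at day 2 (24.3% ± 34.3 of WT), so these knockdowns could not be read. The replicates of NKX2-5 shRNA cells at day 10 stood apart from each other more than those of any other group, with a chi-square of 103 per gene against 5.18 to 44 in the other groups. The study calls its RNA-seq samples biological replicates, but nothing in the labels says whether they came from separate cultures. P-values thus measure only the spread between these libraries. In bulk RNA, fewer cells of a type and less RNA per cell cannot be told apart. Levels are given as CPM, the reads of a gene scaled to a common library total, on a single TMM scale for all libraries, gene spans are those of GENCODE on GRCh37, and a call means an adjusted p of at most 0.05 in edgeR's quasi-likelihood test after adjustment by Benjamini-Hochberg across every gene tested (5% FDR). At day 6 the targets were also low in other lines (group means). ZNF503 was at 0.745 CPM in NKX2-5 shRNA cells and 0.629 CPM in its own line (WT 9.02), but at 12.5 CPM in ZEB2 shRNA cells. NKX2-5 was at 2.48 CPM in ZNF503 and 36.0 CPM in ZEB2 shRNA cells (WT 67.3). ZEB2 was at 20.5 and 11.8 CPM in NKX2-5 and ZNF503 shRNA cells, below 55.8 CPM in its own line (WT 95.4). Knockdown thus cannot be told apart from a change in the cell mixture here.

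In WT cells the mixture of subunits changed with each day sampled, and it changed most for DPF3 and SMARCD3. At day 2, 5 of the 9 members tested passed 5% FDR against day 0, where 44.1% of all genes did: SMARCD3 was higher, and SMARCA2, SMARCD1, SMARCD2 and ACTL6A were lower. At day 6 the count was 7 of 9 (60.9% of all genes), with DPF3, SMARCD3 and SMARCA2 higher and SMARCA4, SMARCD1, SMARCD2 and ACTL6A lower. At day 10 it was 8 of 9 (73.8% of all genes), with DPF3, SMARCD3, SMARCA2, ARID1A and ARID1B higher and SMARCD1, SMARCD2 and ACTL6A lower. The share of members called was thus close to that of all genes at each day. The median log2 change of the members tested was -0.27, -0.18 and 0.64 at days 2, 6 and 10, beside -0.01, 0.03 and 0.10 over all genes. The day 2 calls of SMARCD1 (log2 change -0.27 ± 0.10 SE, adjusted p = 0.0446) and SMARCD2 (-0.47 ± 0.15, adjusted p = 0.0247) were lost without any 1 of the 4 WT libraries of days 0 and 2 (-0.32 to -0.24 and -0.51 to -0.46), while the other calls in WT cells held without any 1 library.

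**Figure D1:**
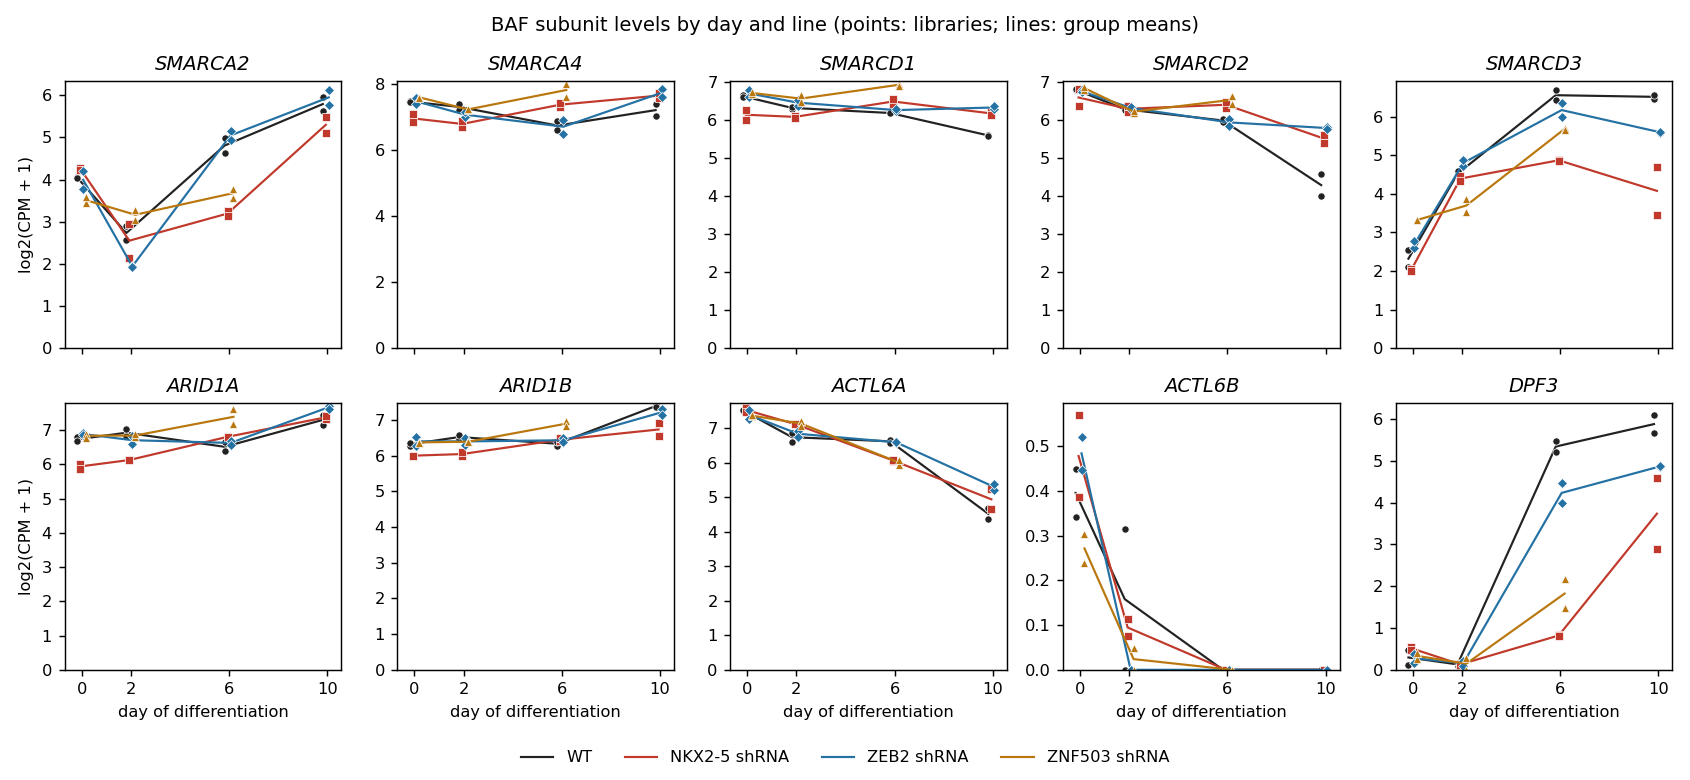
Level of each BAF subunit as log2(CPM + 1) (vertical axis) at days 0, 2, 6 and 10 of differentiation (horizontal axis), for WT (black circles), NKX2-5 shRNA (red squares), ZEB2 shRNA (blue diamonds) and ZNF503 shRNA cells (ochre triangles); points are the 2 libraries of a group and lines join group means. DPF3 stayed at or below 0.462 CPM in all libraries of days 0 and 2 and reached 36.0 to 67.2 CPM in WT cells afterwards, while ACTL6B was at 0 in all libraries of days 6 and 10; the vertical scale differs between panels.

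DPF3 (GRCh37 chr14:73075742-73360809, minus strand) encodes a BAF subunit that binds modified histone tails through its PHD fingers. In WT cells it had 3 and 15 counts at day 0 and 2 counts in each library at day 2, equal to 0.0643 to 0.393 CPM. The WT level was 43.6 and 36.0 CPM at day 6, and 67.2 and 50 CPM at day 10. The groups before and after day 2 were thus apart by a wide margin, and against day 0 the log2 change was 7.39 ± 0.38 at day 6 (adjusted p = 1.02e-07) and 7.98 ± 0.38 at day 10 (adjusted p = 3.75e-08). DPF3 rested on so few counts at day 0 that these sizes moved between 6.66 and 8.89 at day 6 and between 7.24 and 9.47 at day 10 when single libraries were left out. Between days 6 and 10 the WT change of 0.59 ± 0.24 did not pass the test (adjusted p = 0.0545).

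The level of DPF3 at day 6 was lower than WT in all 3 knockdown lines. In NKX2-5 shRNA cells DPF3 was at 0.772 and 0.761 CPM at day 6, and in ZNF503 shRNA cells at 3.51 and 1.78 CPM. ZEB2 shRNA cells lay between these and WT, at 21.3 and 14.9 CPM. No library of a knockdown line reached the lower WT library of 36.0 CPM. Against WT at day 6 the log2 change was -5.70 ± 0.32 in NKX2-5 shRNA cells (52.0-fold lower, adjusted p = 3.66e-08), -3.94 ± 0.29 in ZNF503 shRNA cells (15.3-fold lower, adjusted p = 4.55e-07) and -1.11 ± 0.24 in ZEB2 shRNA cells (2.17-fold lower, adjusted p = 0.00983). The 3 lines also differed from each other: DPF3 was lower in NKX2-5 than in ZNF503 shRNA cells (-1.76 ± 0.35, adjusted p = 0.00632) and higher in ZEB2 than in ZNF503 shRNA cells (2.82 ± 0.28, adjusted p = 7.55e-06). The ZEB2 shRNA call was lost without WT day 6 replicate 1 (-0.96, adjusted p = 0.0685) and without ZEB2 shRNA day 6 replicate 2 (-0.90, adjusted p = 0.121).

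At day 10 DPF3 was at 6.39 and 23.1 CPM in NKX2-5 shRNA cells and at 27.9 and 28.5 CPM in ZEB2 shRNA cells. All 4 libraries lay below the WT libraries of that day, and the NKX2-5 shRNA replicates differed by more than their mean of 14.7 CPM. DPF3 fell below WT by 1.99 ± 0.52 on the log2 scale in NKX2-5 shRNA cells (adjusted p = 0.0181), and this call was lost without WT day 10 replicate 3 (-1.76, adjusted p = 0.108) or replicate 4 (-2.18, adjusted p = 0.0623). Within the NKX2-5 shRNA line DPF3 rose from day 6 to day 10 by 4.21 ± 0.62 (adjusted p = 0.00122). For ZEB2 shRNA cells at day 10 the change of -1.06 ± 0.50 did not pass the test (adjusted p = 0.18). The change passed in a fit of WT and ZEB2 shRNA libraries alone (-1.05, adjusted p = 0.00251), an alternative chosen after seeing the data.

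SMARCD3 (GRCh37 chr7:150935850-150974982, minus strand), a subunit that links BAF to cardiac transcription factors, was the first member to rise. WT cells had 4.83 and 3.27 CPM at day 0, 23.2 and 20.7 CPM at day 2, 102 and 84.7 CPM at day 6, and 86.9 and 93.7 CPM at day 10. The level thus climbed at each step up to day 6 and then levelled, with a log2 change of -0.02 ± 0.16 from day 6 to day 10 (adjusted p = 0.945). Against day 0, SMARCD3 rose by 2.49 ± 0.19 at day 2 (5.61-fold, adjusted p = 5.51e-06), 4.55 ± 0.19 at day 6 (23.4-fold, adjusted p = 2.67e-08) and 4.54 ± 0.19 at day 10 (23.2-fold, adjusted p = 1.91e-08).

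SMARCD3 reached lower levels in NKX2-5 and ZNF503 shRNA cells. At day 2 NKX2-5 shRNA cells had 21.0 and 19.1 CPM, which overlapped WT. Their level was 28.6 and 27.8 CPM at day 6 and 9.97 and 24.9 CPM at day 10, all below the WT libraries. The change against WT was -1.73 ± 0.14 at day 6 (3.32-fold lower, adjusted p = 1.02e-06) and -2.37 ± 0.39 at day 10 (5.18-fold lower, adjusted p = 0.00312). ZNF503 shRNA cells followed another course, with 9.02 and 8.98 CPM at day 0, 13.5 and 10.6 CPM at day 2, and 51.5 and 49.1 CPM at day 6. They stood above WT at day 0 (1.14 ± 0.21, adjusted p = 0.0092) and below it at day 2 (-0.91 ± 0.14, adjusted p = 0.00026) and day 6 (-0.90 ± 0.14, adjusted p = 0.000207). The day 0 call was lost without WT replicate 2 (0.89, adjusted p = 0.115) and without ZNF503 shRNA replicate 1 (1.13, adjusted p = 0.0684) or 2 (1.16, adjusted p = 0.101) of that day.

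In ZEB2 shRNA cells SMARCD3 was at 80.1 and 62.8 CPM at day 6 and at 46.9 and 47.8 CPM at day 10. Both groups lay below WT, but neither the day 6 change of -0.37 ± 0.14 (adjusted p = 0.117) nor the day 10 change of -0.94 ± 0.37 (adjusted p = 0.122) passed the test. The day 10 change did pass in 1 fit of all libraries (-0.94, adjusted p = 0.00368) and with the replicate number as a block (-0.93, adjusted p = 0.00429). The change also passed with WT and ZEB2 shRNA libraries alone (-0.93, adjusted p = 0.00187), a fit chosen after seeing the data. By DESeq2 (-0.96, adjusted p = 0.0667) and without any 1 library the change did not pass. SMARCD3 was lower in NKX2-5 than in ZEB2 shRNA cells at day 6 (-1.36 ± 0.14, adjusted p = 8.62e-06) and at day 10 (-1.43 ± 0.38, adjusted p = 0.0359). It was also the sole member called between these lines at day 10, where 21.4% of all genes were called.

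The promoters of the 2 genes with the largest rise in WT cells are shown, so that their letters can be searched for the sites of the factors knocked down. Both are 300-base windows from RefSeq (GRCh38.p14), from 250 bases before to 50 bases after the start site, written 5′ to 3′ on the gene's strand with CpG dinucleotides in capitals.
DPF3, chr14:72894052-72894351, minus strand: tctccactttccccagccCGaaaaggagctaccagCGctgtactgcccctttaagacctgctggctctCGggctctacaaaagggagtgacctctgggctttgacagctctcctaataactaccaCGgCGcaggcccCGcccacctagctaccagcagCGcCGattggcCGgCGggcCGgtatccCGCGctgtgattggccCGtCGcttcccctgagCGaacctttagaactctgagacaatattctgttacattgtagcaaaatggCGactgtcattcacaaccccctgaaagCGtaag
SMARCD3, chr7:151277100-151277399, minus strand: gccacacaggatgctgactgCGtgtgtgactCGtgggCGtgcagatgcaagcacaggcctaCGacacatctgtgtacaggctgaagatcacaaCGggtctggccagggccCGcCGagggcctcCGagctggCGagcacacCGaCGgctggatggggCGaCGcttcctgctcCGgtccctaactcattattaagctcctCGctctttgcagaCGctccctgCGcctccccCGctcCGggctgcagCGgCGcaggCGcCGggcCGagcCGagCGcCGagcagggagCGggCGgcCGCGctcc
The DPF3 window held 18 CpG and the SMARCD3 window 31, beside a median of 14 over all 35116 promoters of the same length, and their GC content was 57% and 68.7%. A promoter was listed for 9 of the 10 members, ACTL6A being the exception. CpG numbers ran from 5 in ARID1B to 55 in SMARCA4 among them. On both strands, the letters TNAAGTG (an NKX2-type site, in 10.2% of all promoters), AGATAA (the type bound by GATA factors, 10.3%) and AGGTGT (T-box-type, 11.4%) occurred in none of the 9 windows. The E-box CACCTG bound by ZEB proteins (20.6% of all promoters; on the other strand its letters can overlap the T-box letters) occurred in the ARID1B window alone, at position -87 from the start. These matches describe letters in a short window and say nothing of binding.

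The ATPases moved in different ways. SMARCA4 (GRCh37 chr19:11071608-11190102), the main ATPase of ESCs, was at 180 and 174 CPM in WT cells at day 0 and at 96.2 and 118 CPM at day 6, a fall of 0.70 ± 0.14 on the log2 scale (adjusted p = 0.00194). By day 10 it was at 130 and 168 CPM, and the change from day 0 of -0.19 ± 0.14 did not pass the test (adjusted p = 0.251). SMARCA2 (GRCh37 chr9:1980290-2193624), the alternative ATPase, was at 15.6 and 15.4 CPM at day 0, 4.95 and 6.44 CPM at day 2, 23.9 and 30.5 CPM at day 6, and 61.2 and 48.3 CPM at day 10. The WT groups did not overlap at any step: SMARCA2 dipped at day 2 (-1.42 ± 0.19, adjusted p = 0.000284) and then rose above day 0 at day 6 (0.84 ± 0.18, adjusted p = 0.00219) and day 10 (1.88 ± 0.18, 3.69-fold, adjusted p = 5.66e-06). Per kilobase of exon the WT level of SMARCA4 was 31.7 CPM at day 0 and 26.7 CPM at day 10, against 2.69 and 9.53 CPM for SMARCA2, so SMARCA4 remained the more abundant ATPase.

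At day 6 both NKX2-5 and ZNF503 shRNA cells had less SMARCA2 and more SMARCA4 than WT. SMARCA2 was at 8.60 and 7.73 CPM in NKX2-5 shRNA cells and at 12.8 and 10.9 CPM in ZNF503 shRNA cells, all below WT. The changes were -1.75 ± 0.18 (adjusted p = 5.56e-06) and -1.20 ± 0.18 (adjusted p = 0.000118). SMARCA4 was at 159 and 173 CPM in NKX2-5 shRNA cells (0.63 ± 0.16, adjusted p = 0.00701) and at 259 and 197 CPM in ZNF503 shRNA cells (1.09 ± 0.16, adjusted p = 0.000159), all above WT. The SMARCA4 call in NKX2-5 shRNA cells was lost without WT day 6 replicate 1 (0.49, adjusted p = 0.0606). ZEB2 shRNA cells overlapped WT for both ATPases at day 6. SMARCA2 then rose in NKX2-5 shRNA cells to 44 and 33.4 CPM at day 10, an increase of 2.19 ± 0.30 over day 6 (adjusted p = 0.000969), and the change against WT of -0.50 ± 0.24 did not pass the test (adjusted p = 0.134). That last change was called without NKX2-5 shRNA day 10 replicate 1 (-0.71, adjusted p = 0.0391). At day 0 SMARCA2 was lower in ZNF503 shRNA cells (9.82 and 11 CPM, -0.58 ± 0.16, adjusted p = 0.0455), a call lost without any 1 of the 4 libraries (-0.65 to -0.51, adjusted p 0.195 to 0.253).

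SMARCD1 (GRCh37 chr12:50478983-50494490) and SMARCD2 (GRCh37 chr17:61909441-61920425, minus strand) can fill the same position as SMARCD3, and both fell in WT cells. SMARCD1 was at 100 and 96.7 CPM at day 0. Its WT libraries had 72.8 and 71.5 CPM at day 6, and 47.9 and 47.2 CPM remained by day 10. SMARCD2 went from 108 and 111 CPM to 60.2 and 63.9 CPM and then to 22.8 and 14.9 CPM. The largest step came after day 6, and by day 10 the log2 change from day 0 was -0.99 ± 0.10 for SMARCD1 (adjusted p = 7.06e-06) and -2.45 ± 0.16 for SMARCD2 (5.46-fold lower, adjusted p = 3.6e-07).

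The fall from day 0 to day 10 was less deep than in WT for SMARCD2 in NKX2-5 and ZEB2 shRNA cells, and for SMARCD1 in ZEB2 shRNA cells. In NKX2-5 shRNA cells SMARCD1 began at 63.7 and 76.7 CPM at day 0 and was not called between these days. At day 10 both genes were higher than WT in these lines. SMARCD2 was at 41.2 and 47.7 CPM in NKX2-5 shRNA cells and at 54.9 and 53.0 CPM in ZEB2 shRNA cells, all above the WT libraries. Its change against WT was 1.23 ± 0.25 (2.35-fold, adjusted p = 0.00672) and 1.5 ± 0.25 (2.83-fold, adjusted p = 0.00868). SMARCD1 was at 73.3 and 69.9 CPM in NKX2-5 shRNA cells (0.59 ± 0.17, adjusted p = 0.0283) and at 77.3 and 82.6 CPM in ZEB2 shRNA cells (0.74 ± 0.17, adjusted p = 0.0278). The SMARCD1 calls did not hold when certain single libraries were left out, although the size of the change moved little. In NKX2-5 shRNA cells the call was lost without either WT library (0.59 and 0.61, adjusted p 0.093 and 0.0932), and in ZEB2 shRNA cells without any 1 of the 4 libraries (0.70 to 0.80, adjusted p 0.113 to 0.241). The SMARCD2 call in ZEB2 shRNA cells was lost without WT replicate 4 (1.25, adjusted p = 0.0566), ZEB2 shRNA replicate 3 (1.48, adjusted p = 0.0739) and ZEB2 shRNA replicate 4 (1.54, adjusted p = 0.07).

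At day 6 the same genes were higher in ZNF503 shRNA cells, at 124 and 119 CPM for SMARCD1 (0.75 ± 0.11, adjusted p = 8.51e-05) and 97.6 and 84.7 CPM for SMARCD2 (0.55 ± 0.12, adjusted p = 0.00223). In NKX2-5 shRNA cells SMARCD1 was at 85.7 and 93.0 CPM (0.30 ± 0.10, adjusted p = 0.0303) and SMARCD2 at 78.7 and 87.4 CPM (0.41 ± 0.12, adjusted p = 0.0128). The SMARCD1 call in NKX2-5 shRNA cells was lost without any 1 of the 4 libraries (0.24 to 0.36, adjusted p 0.0797 to 0.236). The SMARCD2 call was lost without WT replicate 1 (0.37, adjusted p = 0.0792) and without NKX2-5 shRNA replicate 2 (0.34, adjusted p = 0.133).

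The balance between paralogues was read within each library as the log2 ratio of their counts, which does not depend on library scaling. SMARCD3 was below SMARCD1 in WT cells at day 0 (-4.63 ± 0.359, SD, n = 2) and above it at day 10 (0.92 ± 0.0911), and against SMARCD2 it moved from -4.78 ± 0.43 to 2.29 ± 0.504. Counts are not corrected for length here, so the direction of change is readable but the crossing point is not. In NKX2-5 shRNA cells the SMARCD3 to SMARCD1 ratio was -1.66 ± 0.11 at day 6 and -2.18 ± 0.979 at day 10, below all WT libraries of those days. ZNF503 shRNA cells were at -1.28 ± 0.00547 at day 6, and ZEB2 shRNA cells at -0.10 ± 0.282 at day 6 and -0.76 ± 0.0485 at day 10. The SMARCA2 to SMARCA4 ratio was -1.98 ± 0.0403 in WT cells at day 6, -1.70 ± 0.149 in ZEB2 shRNA cells, -4.35 ± 0.196 in NKX2-5 shRNA cells and -4.25 ± 0.118 in ZNF503 shRNA cells. In the last 2 lines the ratio thus lay nearer the WT value of day 2 (-4.80 ± 0.135) than that of day 6. In ZNF503 shRNA cells it had hardly moved from day 0 (-4.22 ± 0.149) and day 2 (-4.23 ± 0.192). NKX2-5 shRNA cells were at -2.77 ± 0.21 at day 0 and -4.52 ± 0.827 at day 2. The ARID1B to ARID1A ratio spanned a narrow range, from -0.64 ± 0.191 in NKX2-5 shRNA cells at day 10 to 0.09 ± 0.256 in WT cells at day 10. These ratios were not tested, because an exact two-sided permutation test of 2 against 2 libraries cannot give a p below 0.333. Counting all RefSeq transcripts of a gene together turned the sign of the SMARCD3 to SMARCD1 ratio in ZEB2 shRNA cells at day 6 to 0.48 and that of ARID1B to ARID1A in WT cells at day 10 to -0.84.

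**Figure D2:**
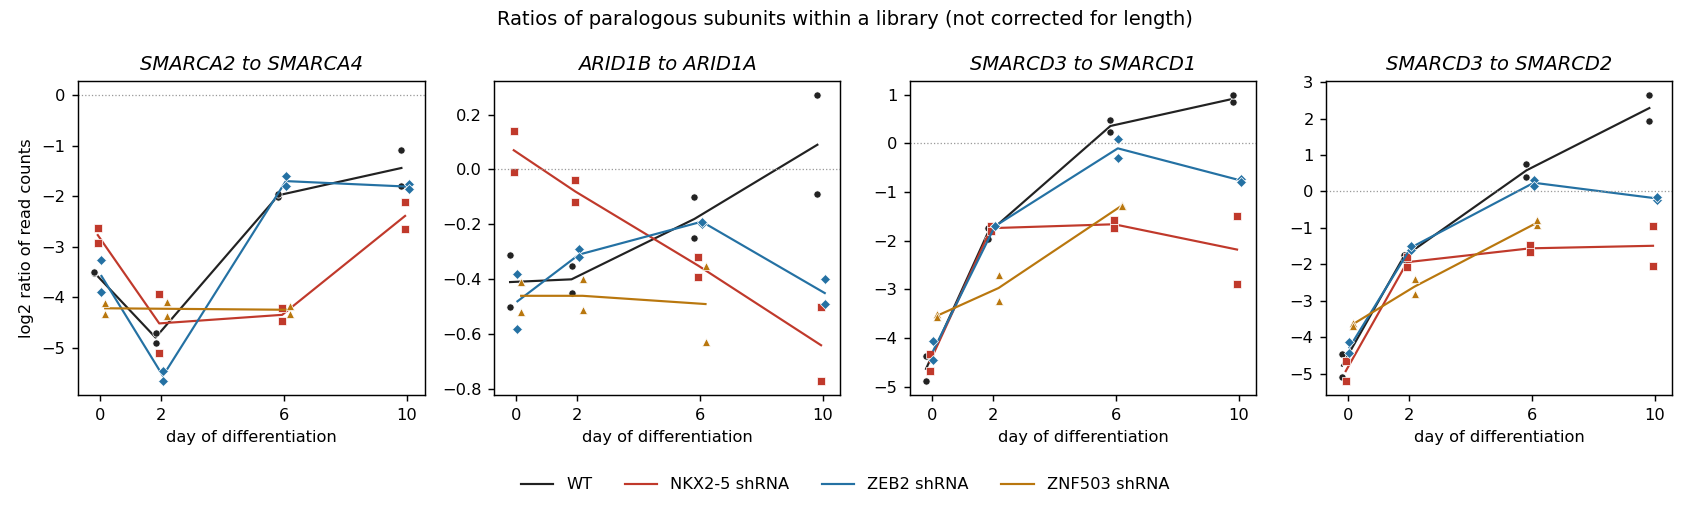
Log2 ratio of read counts of paralogous BAF subunits within a library (vertical axis, not corrected for gene length) at days 0, 2, 6 and 10 (horizontal axis), with the same colours and symbols as in the plot of levels; points are libraries, lines join group means and the dotted line marks equal counts. SMARCD3 gained on SMARCD1 and SMARCD2 in all lines between days 0 and 2, and at day 6 the NKX2-5 shRNA and ZNF503 shRNA libraries lay below the WT libraries in the ratios of SMARCD3 to SMARCD1 and SMARCA2 to SMARCA4.

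ARID1A (GRCh37 chr1:27019727-27108595) and ARID1B (GRCh37 chr6:157097154-157531913) define the canonical form of BAF and were higher at the end of the WT course. ARID1A was at 109 and 101 CPM at day 0 and at 140 and 174 CPM at day 10 (0.64 ± 0.14, adjusted p = 0.00185). ARID1B was at 76.7 and 81.3 CPM at day 0, 76.7 and 83.0 CPM at day 6, and 170 and 164 CPM at day 10 (1.14 ± 0.10, 2.2-fold, adjusted p = 2.54e-06). ARID1B rose between the last 2 of these days, by 1.09 ± 0.10 from day 6 to day 10 (adjusted p = 1.4e-05).

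NKX2-5 shRNA cells had less ARID1A before differentiation began. Their ARID1A level was 63.6 and 57.0 CPM at day 0 and 68.2 and 69.3 CPM at day 2, below the WT libraries on both days (-0.82 ± 0.10, 1.76-fold lower, adjusted p = 0.000475, and -0.84 ± 0.11, 1.79-fold lower, adjusted p = 0.000113). By day 6 the level was 110 and 111 CPM, above WT at 82.1 and 98.9 CPM, but the change of 0.28 ± 0.14 did not pass the test (adjusted p = 0.129). ARID1B was also lower in this line at day 0, at 63.2 and 62.9 CPM (-0.34 ± 0.11, adjusted p = 0.0455), at day 2, at 62.9 and 67.4 CPM (-0.52 ± 0.10, adjusted p = 0.00249), and at day 10, at 92.9 and 120 CPM (-0.64 ± 0.20, adjusted p = 0.0333). The day 0 call of ARID1B was lost without any 1 of the 4 libraries (-0.39 to -0.30, adjusted p 0.0729 to 0.272). The day 10 call was lost without WT replicate 3 (-0.61, adjusted p = 0.122) or 4 (-0.65, adjusted p = 0.101) and without NKX2-5 shRNA replicate 1 (-0.46, adjusted p = 0.0677). In ZNF503 shRNA cells at day 6 both genes were higher than WT, ARID1A at 193 and 143 CPM (0.89 ± 0.14, adjusted p = 0.000266) and ARID1B at 125 and 112 CPM (0.57 ± 0.11, adjusted p = 0.000945).

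ACTL6A (GRCh37 chr3:179280674-179306195), an actin-like subunit of dividing and progenitor cells, fell by day 2 and again after day 6. WT cells had 181 and 182 CPM at day 0, 116 and 96.3 CPM at day 2, 99.7 and 94.6 CPM at day 6, and 24.5 and 19.5 CPM at day 10. The change from day 0 was -0.73 ± 0.12 at day 2 (adjusted p = 0.000931), -0.88 ± 0.12 at day 6 (adjusted p = 0.000146) and -2.98 ± 0.14 at day 10 (7.87-fold lower, adjusted p = 3.03e-08). At day 6 ACTL6A was lower than WT in NKX2-5 shRNA cells (64.5 and 67.1 CPM, -0.57 ± 0.11, adjusted p = 0.000816) and in ZNF503 shRNA cells (60.4 and 65.8 CPM, -0.63 ± 0.11, adjusted p = 0.000417). ZEB2 shRNA cells had 36.1 and 40.4 CPM at day 10, above the WT libraries, but edgeR did not call this change. DESeq2 did call ACTL6A there (0.77, adjusted p = 0.0412). At day 2 it was higher than WT in NKX2-5 shRNA cells (139 and 137 CPM, 0.35 ± 0.10, adjusted p = 0.0156) and in ZNF503 shRNA cells (146 and 133 CPM, 0.34 ± 0.10, adjusted p = 0.0169). Both day 2 calls were lost without WT day 2 replicate 2 (0.24, adjusted p = 0.206, and 0.23, adjusted p = 0.225). They were also lost without NKX2-5 shRNA replicate 1 (0.36, adjusted p = 0.0506) or 2 (0.33, adjusted p = 0.0595) and without ZNF503 shRNA replicate 1 (0.30, adjusted p = 0.114) of that day.

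ACTL6B (GRCh37 chr7:100240720-100254071, minus strand), the neuronal counterpart of ACTL6A, was below 1 CPM in every library. It had 8 to 39 counts in the 8 libraries of day 0 and 0 to 4 counts in the 22 later libraries, with 0 counts in 18 of these and in all 14 libraries of days 6 and 10. A count of 0 allows up to 3 counts in a library, so a low level at the later days was not detectable at this depth. At day 0 no difference of ACTL6B between a line and WT passed the test (adjusted p = 0.702, 0.769 and 0.517 in NKX2-5, ZEB2 and ZNF503 shRNA cells).

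Before differentiation NKX2-5 shRNA cells differed from WT in more members than the other lines did. At day 0, 4 of 10 members were called in NKX2-5 shRNA cells, where 15.9% of all genes were called: ARID1A, ARID1B, SMARCA4 and SMARCD1, all lower, as were 7.64% of all genes. SMARCA4 was at 114 and 135 CPM (-0.53 ± 0.10, adjusted p = 0.00617) and SMARCD1 at 63.7 and 76.7 CPM (-0.51 ± 0.11, adjusted p = 0.00978), below the WT libraries. Without WT day 0 replicate 1 both were lost (-0.51, adjusted p = 0.0709, and -0.48, adjusted p = 0.0954), as they were without WT day 0 replicate 2 (-0.55, adjusted p = 0.0558, and -0.53, adjusted p = 0.071), which leaves ARID1A as the member of the 4 that held. The median log2 change of the 10 members was -0.28 in this comparison. In ZNF503 shRNA cells 2 of 10 were called (7.49% of all genes), SMARCD3 higher and SMARCA2 lower. In ZEB2 shRNA cells edgeR called 0 of 10 (3.93% of all genes), with 0 members at an unadjusted p under 0.05 and 0 calls by DESeq2.

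At day 2, 8 members were tested, since DPF3 and ACTL6B did not pass the filter on low counts. The calls were 4 in NKX2-5 shRNA cells (26.6% of all genes), with ACTL6A higher and ARID1A, ARID1B and SMARCA4 lower, and 2 in ZNF503 shRNA cells (26.9%), with ACTL6A higher and SMARCD3 lower. SMARCA4 in NKX2-5 shRNA cells was at 103 and 118 CPM, below WT at 148 and 169 CPM (-0.55 ± 0.10, adjusted p = 0.00173). In ZEB2 shRNA cells edgeR called 0 of 8 (0.49% of all genes), with 3 members at an unadjusted p under 0.05 and 0 calls by DESeq2. Among these was SMARCA2, at 2.87 and 2.81 CPM against 4.95 and 6.44 CPM in WT cells (-1.03 ± 0.28, adjusted p = 0.171).

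In NKX2-5 and ZNF503 shRNA cells more members were called at day 6 than at the other days compared, whereas ZEB2 shRNA cells had more calls at day 10. All 9 members tested were called in ZNF503 shRNA cells, where 55.7% of all genes were called, and 7 of 9 in NKX2-5 shRNA cells, where 49.1% were. DPF3, SMARCA2, SMARCD3 and ACTL6A were lower in each line, and SMARCA4, SMARCD1 and SMARCD2 were higher in each, in comparisons that share the WT libraries. ARID1A and ARID1B were higher in ZNF503 shRNA cells and were not called in NKX2-5 shRNA cells. These 2 genes, with DPF3, SMARCD1 and SMARCD3, were also lower in NKX2-5 than in ZNF503 shRNA cells, making 5 of 9 called between the lines (14.7% of all genes). In ZEB2 shRNA cells DPF3 was the 1 member called of 9 (11% of all genes).

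At day 10, 5 of 9 members were called in NKX2-5 shRNA cells (43.9% of all genes), with SMARCD1 and SMARCD2 higher and DPF3, SMARCD3 and ARID1B lower. In ZEB2 shRNA cells 2 of 9 were called (18.2% of all genes), SMARCD1 and SMARCD2, both higher. A fit of WT and ZEB2 shRNA libraries alone was added after the data were seen. The count in ZEB2 shRNA cells depended strongly on which libraries set the spread. It was 6 in a fit of WT and ZEB2 shRNA libraries alone, where DPF3 and SMARCD3 were called lower and SMARCA4 and ACTL6A higher in addition, 5 with the replicate number as a block, and 0 to 1 when single libraries were left out: 1 without WT replicate 3, and 0 without WT replicate 4 or ZEB2 shRNA replicate 3 or 4. For NKX2-5 shRNA cells the count was 2 without WT day 10 replicate 3 or 4, and 6 without NKX2-5 shRNA replicate 1, where ACTL6A was called higher (0.72, adjusted p = 0.028).

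Few members passed the fold thresholds that the study set beside its FDR, which grow with time: 2-fold at 10% FDR on day 0, 4-fold at 10% FDR on day 2, and 8-fold at 1% FDR on days 6 and 10. Against WT, DPF3 passed them in NKX2-5 shRNA cells at day 6 (1 of 9 members, 4.71% of all genes) and in ZNF503 shRNA cells at day 6 (1 of 9, 3.91%), and SMARCD3 passed them in ZNF503 shRNA cells at day 0 (1 of 10, 2.57%). No member passed in the other 8 comparisons with WT, where the shares of all genes were 4.03%, 1.19% and 7.31% in NKX2-5 shRNA cells at days 0, 2 and 10, 2.21%, 0.133%, 0.462% and 1.46% in ZEB2 shRNA cells at days 0, 2, 6 and 10, and 2.8% in ZNF503 shRNA cells at day 2. In WT cells against day 0, SMARCD3 passed at day 2 (1 of 9, 8.37%), and DPF3 and SMARCD3 passed at day 6 (2 of 9, 10.2%) and day 10 (2 of 9, 15.5%).

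The change from day 0 was also compared with that of WT cells directly, in a fit of all 30 libraries. A gap between a line and WT at day 0 enters these differences. From day 0 to day 6, 8 of 10 members differed from WT in NKX2-5 shRNA cells (33.1% of all genes) and 6 of 10 in ZNF503 shRNA cells (30.8%). The difference in log2 change was -6.53 ± 0.92 and -4.10 ± 0.92 for DPF3 and -1.34 ± 0.37 and -2.03 ± 0.36 for SMARCD3, which thus rose less than in WT cells. From day 0 to day 10 the count was 6 of 10 in NKX2-5 shRNA cells (46.8%) and 4 of 10 in ZEB2 shRNA cells (23.4%). SMARCD3 (-1.37 ± 0.36, adjusted p = 0.00776), SMARCD2 (1.53 ± 0.21, adjusted p = 2e-05), SMARCD1 (0.67 ± 0.15, adjusted p = 0.00232) and ACTL6A (0.91 ± 0.21, adjusted p = 0.00279) were the 4 in ZEB2 shRNA cells. Up to day 2 the count was 2 in ZNF503 shRNA cells (10.5%), SMARCA2 and SMARCD3, and 0 in NKX2-5 (0.915%) and ZEB2 shRNA cells (0.352%), where edgeR gave 0 and 2 members at an unadjusted p under 0.05. It was also 0 in ZEB2 shRNA cells up to day 6 (3.89%), with 1 member at an unadjusted p under 0.05. DESeq2 was not run on this contrast. The difference of SMARCD3 in ZEB2 shRNA cells was lost without WT day 0 replicate 2 (-1.07, adjusted p = 0.0756), as was that of SMARCD3 in NKX2-5 shRNA cells at day 6 (-1.08, adjusted p = 0.0587).

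The cardiomyocyte markers TNNT2, MYH6, MYH7, MYL7, ACTN2 and TTN were high in WT cells at the days when DPF3 and SMARCD3 were. Their summed level was 48.4 to 64.8 CPM in the WT libraries of days 0 and 2. At day 6 it was 32600 to 39700 CPM, and WT libraries of day 10 held 65400 to 74500 CPM. SMARCD3 departed from this course: it had risen 5.61-fold in WT cells by day 2, where 0 of 6 markers were called, and its change from day 6 to day 10 was -0.02 ± 0.16 (adjusted p = 0.945), where 4 of 6 markers were called higher. The summed marker level at day 6 was 7310 to 7460 CPM in NKX2-5, 9900 to 10300 CPM in ZNF503 and 15300 to 16500 CPM in ZEB2 shRNA cells. At day 10 this sum was 3100 to 4180 CPM in NKX2-5 and 12400 to 17200 CPM in ZEB2 shRNA cells. Against WT, 6 of 6 markers were lower in NKX2-5 and ZNF503 shRNA cells at day 6, 5 of 6 in ZEB2 shRNA cells at day 6, 6 of 6 in NKX2-5 shRNA cells at day 10 and 3 of 6 in ZEB2 shRNA cells at day 10. None of the 6 was at 0 in any group of days 6 and 10. At day 6 DPF3 and the summed markers had the same order of groups, from WT through ZEB2 and ZNF503 to NKX2-5 shRNA cells. At day 10 NKX2-5 shRNA cells had more DPF3 (6.39 and 23.1 CPM) than at day 6 (0.772 and 0.761 CPM) with a lower summed marker level. The markers were divided, however, with 3 of 6 called higher and 1 lower at day 10 than at day 6 in this line. The part of the cell mixture in the BAF results was not tested.

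**Figure D3:**
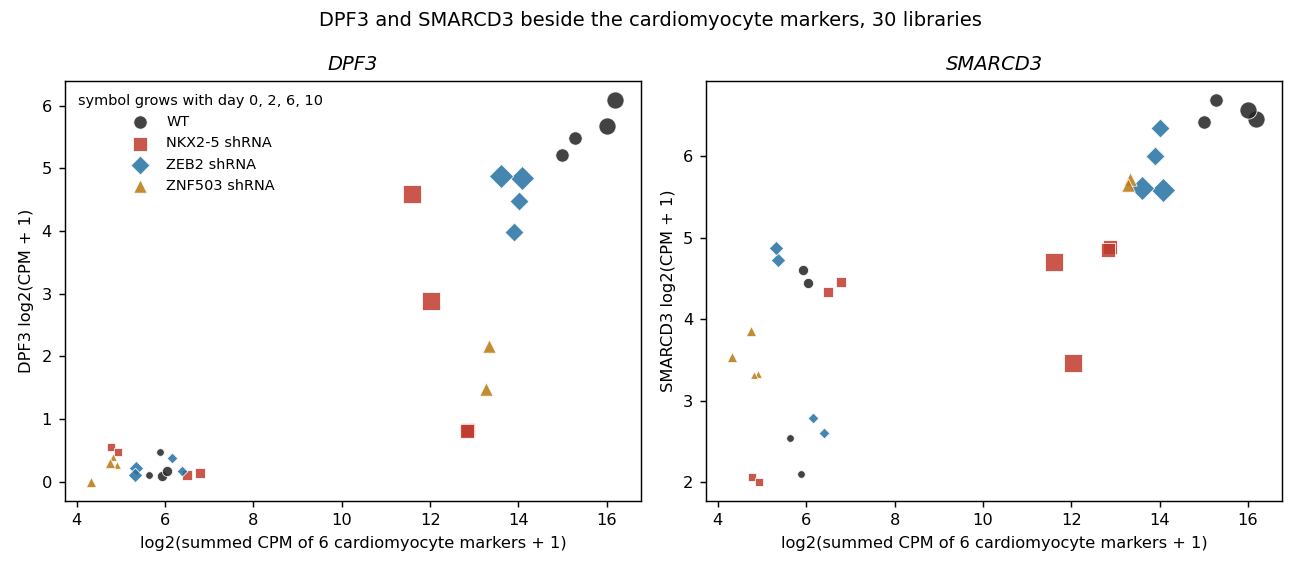
DPF3 (left) and SMARCD3 (right) as log2(CPM + 1) (vertical axes) beside the summed level of 6 cardiomyocyte markers as log2(CPM + 1) (horizontal axes) in 30 libraries; colours and symbols mark the lines and the symbol grows with the day. WT libraries of days 6 and 10 lie at the upper right (36.0 to 67.2 CPM of DPF3), libraries of days 0 and 2 at the left, where SMARCD3 of day 2 is already at 10.6 to 28.4 CPM, and the knockdown libraries of days 6 and 10 between them.

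Markers of other cells differed between the groups as well. The pluripotency markers (POU5F1, NANOG, SOX2, LIN28A and DNMT3B) summed to 4330 to 4460 CPM in WT cells at day 0. Later WT libraries held 1070 to 1110 CPM of them (day 6) or 130 to 151 CPM (day 10). At day 6 the same markers were at 1280 CPM in both NKX2-5 shRNA libraries and at 1600 to 1660 CPM in ZNF503 shRNA cells. At day 10 they were at 219 to 319 CPM in NKX2-5 shRNA cells and 233 to 241 CPM in ZEB2 shRNA cells, above WT in sum. Of 5 pluripotency markers tested at day 6, 1 was called higher and 1 lower than WT in NKX2-5 and 3 higher in ZNF503 shRNA cells. At day 10, 1 of the 3 tested was called higher in NKX2-5 and in ZEB2 shRNA cells. The mesendoderm markers (TBXT, MIXL1 and EOMES) peaked at day 2, at 710 to 757 CPM in WT, 618 to 684 CPM in NKX2-5, 708 to 748 CPM in ZEB2 and 339 to 438 CPM in ZNF503 shRNA cells. At day 6 their sum was still 170 to 186 CPM in ZEB2 shRNA cells, beside 12.1 to 12.8 CPM in WT. By day 10 it was 12.8 to 14.7 CPM in ZEB2 shRNA cells, beside 0.567 to 2.47 CPM in WT. Of these 3 markers, 3 were called lower than WT in ZNF503 shRNA cells at day 2. At day 6, 1 was called higher in ZEB2 and 1 lower in NKX2-5 shRNA cells. The endoderm and hepatic genes AFP, TTR, FOXA2 and SOX17, 4 genes chosen after their values were seen, summed to 2020 to 2130 CPM in NKX2-5 and 2060 to 2150 CPM in ZNF503 shRNA cells at day 6, above the 240 to 468 CPM of WT, while ZEB2 shRNA cells had 187 to 258 CPM. On day 10 their sum was 25100 to 36000 CPM in NKX2-5 and 5820 to 7170 CPM in ZEB2 shRNA cells, above 1350 to 3360 CPM in WT. Blood markers (HBZ, HBE1, GATA1, KLF1 and TAL1) reached 873 to 1010 CPM in NKX2-5 shRNA cells at day 10, against 10.6 to 39.5 CPM in WT and 9.18 to 11.6 CPM in ZEB2 shRNA cells. Neural markers (SOX1, PAX6, TUBB3, ELAVL4, SYP and STMN2) summed to 216 to 230 CPM in WT cells at day 0, against 15.2 to 19.5 CPM in those of day 10, where SOX1 was at 0. They were higher in sum in the knockdown lines late in the course: 80.9 to 98.6 CPM in NKX2-5, 25.6 to 28.8 CPM in ZEB2 and 151 to 192 CPM in ZNF503 shRNA cells at day 6, beside 17.1 to 24.9 CPM in WT, and 84.4 to 178 CPM in NKX2-5 and 31.5 to 42.8 CPM in ZEB2 shRNA cells at day 10. Of the 3 neural markers tested, 1 was called higher and 1 lower in NKX2-5 shRNA cells at day 6, 2 higher in ZNF503 shRNA cells at day 6, and 2 higher and 1 lower in NKX2-5 shRNA cells at day 10. In ZEB2 shRNA cells 1 was called higher at day 6, and 1 higher and 1 lower at day 10. The part of these cells in the BAF results was not tested.

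The remaining subunits of BAF and of the related PBAF and non-canonical complexes were read as a list of 18 genes, all of which were tested in each comparison. In WT cells 7, 9 and 10 of 18 were called at days 2, 6 and 10, where 44.1%, 60.9% and 73.8% of all genes were. By day 10 the largest rise among them was that of BICRA, a scaffold of the non-canonical complex (2.41 ± 0.44, adjusted p = 0.00059), and the largest fall that of the core subunit SMARCC1 (-1.26 ± 0.11, adjusted p = 2.56e-06). SMARCC1 was still at 171 CPM or more in every library. The list had a median log2 change of -0.13 at day 10 in WT cells, beside 0.10 over all genes.

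Against WT, 7, 9, 6 and 8 of the 18 other subunits were called in NKX2-5 shRNA cells at days 0, 2, 6 and 10, beside 15.9%, 26.6%, 49.1% and 43.9% of all genes. In ZNF503 shRNA cells 2, 5 and 11 were called at days 0, 2 and 6, beside 7.49%, 26.9% and 55.7%. In ZEB2 shRNA cells edgeR called 0, 0, 1 and 0, beside 3.93%, 0.49%, 11% and 18.2% of all genes, with 3, 2, 1 and 5 at an unadjusted p under 0.05. DPF1, a relative of DPF3 known from neurons, had the largest fall in NKX2-5 shRNA cells at days 2, 6 and 10 and in ZNF503 shRNA cells at days 0 and 6. Its change was -3.10 ± 0.46 in NKX2-5 shRNA cells at day 6 (adjusted p = 0.000124), -1.53 ± 0.51 at day 10 (adjusted p = 0.0432), and -1.11 ± 0.41 in ZNF503 shRNA cells at day 6 (adjusted p = 0.0356). DPF1 rested on few counts: 10 and 13 in NKX2-5 and 32 and 21 in ZNF503 shRNA cells at day 6 (WT 70 and 94). At day 10 it had 13 and 17 counts in NKX2-5 shRNA cells (WT 46 and 16). At day 0 the largest fall in NKX2-5 shRNA cells was that of BCL7A (-0.78 ± 0.13, adjusted p = 0.00261). BICRA had the largest rise at day 6 in all 3 lines, by 1.38 ± 0.28 in NKX2-5 (adjusted p = 0.00142), 1.17 ± 0.29 in ZEB2 (adjusted p = 0.0195) and 1.72 ± 0.28 in ZNF503 shRNA cells (adjusted p = 0.000313). These rises share a low WT level, 47 and 137 counts of BICRA (2.04 and 3.30 CPM). At day 10 BCL7A had the largest rise in NKX2-5 shRNA cells (1.16 ± 0.25, adjusted p = 0.00865).

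Genes with a pattern most like that of DPF3, SMARCD3 and SMARCA2 were sought over the means of the 15 groups on the log2(CPM + 1) scale, among 17030 genes with at least 1 CPM in some group. For DPF3 these were DACT3 (Pearson r = 0.994), the sarcomere gene MYBPC3 (0.988), the calcium channel gene CACNA1D (0.986), COL2A1 (0.979) and NID2 (0.979). For SMARCD3 they were FAM228B (0.958), SUPT7L (0.957), B3GALNT1 (0.954), TET2 (0.953) and XPA (0.952). For SMARCA2 they were ACSL1 (0.951), MATN2 (0.943), SYDE1 (0.927), ST7 (0.926) and HERC1 (0.923). The 15 means share the same 4 days and a common protocol, so the values describe likeness of time course.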

How the data were processed

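Stranded total RNA libraries were sequenced and, per the labels and the study's methods, aligned by the authors to hg19 with TopHat2 (2.0.14, with Bowtie2 2.2.1.0 and SAMtools 0.1.19.0) and counted with RSeQC per RefSeq transcript region. For 41627 accessions the authors deposited raw counts, which were not normalized. Of these accessions 40281 (96.8%, holding 97.1% of counts) were matched to 23185 symbols. The row with the largest total stood for a gene, and rows of a gene share reads, so isoforms were not separated. Of 34 libraries 4 were not used: replicates 1 and 2 of day 10 in the WT and the ZEB2 shRNA line have 42704 rows, 1077 more than the accessions, and correlated with replicate 3 at a Spearman of 0.113 to 0.122, against 0.985 and 0.993 for replicate 4.

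Counts were fitted per day (lines), per line (days) and over all 30 libraries (difference in change) with edgeR's quasi-likelihood test (edgeR 4.0.16 with limma 3.58.1 in R 4.3.3), TMM factors, filterByExpr and Benjamini-Hochberg adjustment over all genes. SE was derived from the log2 change and F. Fits were tested on simulated data. Groups came from the sample titles. The members and the marker and subunit lists were chosen with earlier results of these data known. Named were all members, the targets, the other subunit with the largest called rise and fall per comparison, and the 5 genes most like DPF3, SMARCD3, SMARCA2 and ACTL6B (the last was below 1 CPM in every group, so none was sought). Within-library ratios used a prior count of 0.5. Alternatives were DESeq2 (1.42.0), no TMM factors, no filter, 1 fit of all libraries, the replicate number as a block, summed RefSeq rows, the study's fold thresholds and leaving out each library. Limits from counts of 0 cover counting error only. One marker of a list is not reported here, and no sum holds it.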

Additional observations from a re-analysis of the deposited data

Results flagged for a closer look

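The change of a member from day 0 differed between a knockdown line and WT cells in 26 cases, tested as a difference in log2 change in edgeR's fit of all 30 libraries; a negative value means a smaller rise or a larger fall than in WT cells. All of these comparisons share the WT libraries of day 0. Up to day 2 in ZNF503 shRNA cells, the difference was 1.08 ± 0.34 for SMARCA2 (adjusted p = 0.0444) and -2.02 ± 0.36 for SMARCD3 (adjusted p = 0.00101). The SMARCA2 difference was lost without any 1 of the 8 libraries it rests on (0.86 to 1.25). Up to day 6 in NKX2-5 shRNA cells, the difference was -0.58 ± 0.20 for ACTL6A (adjusted p = 0.0302), 1.08 ± 0.19 for ARID1A (adjusted p = 0.000177), -6.53 ± 0.92 for DPF3 (adjusted p = 1.01e-05), -1.97 ± 0.33 for SMARCA2 (adjusted p = 7.41e-05), 1.14 ± 0.23 for SMARCA4 (adjusted p = 0.000463), 0.79 ± 0.15 for SMARCD1 (adjusted p = 0.000257), 0.61 ± 0.21 for SMARCD2 (adjusted p = 0.0277) and -1.34 ± 0.37 for SMARCD3 (adjusted p = 0.00724). SMARCD3 was lost without WT day 0 replicate 2 (-1.08, adjusted p = 0.0587). ACTL6A was lost without 7 of the 8 libraries in turn (-0.61 to -0.52), all but WT day 6 replicate 2, and SMARCD2 without 6 of them (0.41 to 0.64), all but NKX2-5 shRNA day 0 replicate 2 and day 6 replicate 1. Up to day 6 in ZNF503 shRNA cells, the difference was 0.79 ± 0.19 for ARID1A (adjusted p = 0.00353), 0.52 ± 0.17 for ARID1B (adjusted p = 0.0233), -4.10 ± 0.92 for DPF3 (adjusted p = 0.00175), 0.96 ± 0.22 for SMARCA4 (adjusted p = 0.00231), 0.68 ± 0.15 for SMARCD1 (adjusted p = 0.00138) and -2.03 ± 0.36 for SMARCD3 (adjusted p = 0.000167). ARID1A was lost without ZNF503 shRNA day 6 replicate 1 (0.54, adjusted p = 0.0506), and ARID1B without 6 of 8 libraries (0.43 to 0.54), all but WT day 6 replicate 2 and ZNF503 shRNA day 6 replicate 2. Up to day 10 in NKX2-5 shRNA cells, the difference was 0.86 ± 0.19 for ARID1A (adjusted p = 0.00103), -2.83 ± 0.87 for DPF3 (adjusted p = 0.0106), 0.93 ± 0.23 for SMARCA4 (adjusted p = 0.00182), 1.07 ± 0.15 for SMARCD1 (adjusted p = 5.79e-06), 1.40 ± 0.22 for SMARCD2 (adjusted p = 1.83e-05) and -1.99 ± 0.37 for SMARCD3 (adjusted p = 0.000156). DPF3 was lost without WT day 0 replicate 1 (-2.13, adjusted p = 0.0712), a library with 3 counts of this gene. Up to day 10 in ZEB2 shRNA cells, the difference was 0.91 ± 0.21 for ACTL6A (adjusted p = 0.00279), 0.67 ± 0.15 for SMARCD1 (adjusted p = 0.00232), 1.53 ± 0.21 for SMARCD2 (adjusted p = 2e-05) and -1.37 ± 0.36 for SMARCD3 (adjusted p = 0.00776). SMARCD3 was lost without WT day 0 replicate 2 (-1.07, adjusted p = 0.0756).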

How the results depend on the processing

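Over the members' single changes and ratios, 415 values under other settings kept their direction and side of the threshold or moved by less than the replicate spread, 25 passed it newly, 16 no longer passed, 66 ratios moved by more than the spread and 7 turned sign; with single libraries left out the figures were 426, 3 and 82, with 1 turned. Under the study's fold thresholds the members called against WT were 0 and 1 (NKX2-5 and ZNF503 shRNA, day 0), 0 and 0 (the same lines, day 2), 1, 0 and 1 (NKX2-5, ZEB2 and ZNF503 shRNA, day 6) and 0 and 0 (NKX2-5 and ZEB2 shRNA, day 10), and 1, 2 and 2 in WT cells at days 2, 6 and 10 against day 0. In 1 fit of all 30 libraries they were 2 and 1 (NKX2-5 and ZNF503 shRNA, day 0), 1 (ZNF503 shRNA, day 2), 0 (ZEB2 shRNA, day 6) and 7 (ZEB2 shRNA, day 10). Without TMM factors ZNF503 shRNA cells had 1 call at day 0, and without the filter ZEB2 shRNA cells had 1 at day 2. For ZEB2 shRNA cells at day 10 it was 6 with WT and ZEB2 shRNA libraries alone, an alternative chosen after seeing the data. The cause of these moves was not tested.

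With the replicate number as a block the count was 1 for ZNF503 shRNA cells at day 0 and 5 for ZEB2 shRNA cells at day 10. Same-numbered libraries deviated together with a correlation of -0.0821 to 0.054, and -0.16 in ZEB2 shRNA and WT cells at day 10, so the numbers were not taken as a pairing. Crossing the numbers there, chosen after seeing the data, gave 7. NKX2-5 shRNA cells at day 10, and WT cells at day 10 against day 0, share no replicate numbers with their controls, so no block could be made.

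With single libraries left out the counts ranged from 1 to 4 (day 0), 3 to 4 (day 2), 4 to 6 (day 6) and 2 to 6 (day 10) in NKX2-5 shRNA cells, were 0 to 0 (day 0), 0 to 0 (day 2), 0 to 1 (day 6) and 0 to 1 (day 10) in ZEB2 shRNA cells and 0 to 1 (day 0), 1 to 2 (day 2) and 9 to 9 (day 6) in ZNF503 shRNA cells, and 3 to 4, 7 to 7 and 8 to 9 in WT cells at days 2, 6 and 10 against day 0. The change of DPF3 from day 0 to day 2 in WT cells, -1.40 (adjusted p = 0.237), was -2.12 (adjusted p = 0.0439) without WT day 0 replicate 1 and 0.11 (adjusted p = 0.961) without replicate 2, on 2 to 15 counts. Summing RefSeq rows adds overlapping transcripts, and so shifts a ratio by the number of rows per gene: it turned ARID1B to ARID1A to -0.84 (WT, day 10) and -0.87 (NKX2-5 shRNA, day 0), SMARCD3 to SMARCD1 to 0.48 (ZEB2 shRNA, day 6), and SMARCD3 to SMARCD2 to 0.06 (NKX2-5 shRNA, day 10), 0.06 (ZEB2 shRNA, day 2), 1.37 (ZEB2 shRNA, day 10) and 0.69 (ZNF503 shRNA, day 6). Differences between knockdown lines, changes within them and the 18 other subunits were not run under other settings. Among the members, depth limits DPF3 at days 0 and 2 and ACTL6B throughout, and among the other subunits DPF1 had few counts after day 0.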
